A study of Mus musculus with 10 samples.

Results

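Protein entry into the endoplasmic reticulum (ER) and transport between the ER and the Golgi were followed through 59 genes of the machinery in colon RNA of mice with and without ERdj5. The genes were chosen by symbol, with earlier results of these data known, as the signal recognition particle (6 genes with its receptor subunit), the translocon and its membrane partners (7), the translocon-associated protein complex TRAP (4), the signal peptidase (5), the oligosaccharyltransferase (6), the COPII coat with its GTPase and exit-site organisers (15), the COPI coat (6) and a set of 10 cargo receptors, retrieval receptors and a vesicle SNARE. All 59 symbols were found among the 29320 genes of the table, and all 59 passed edgeR's filter on low counts, which kept 20472 genes. The colons came from female mice aged 8 weeks and were collected on Day 5. WT mice were C57BL/6, bought from a supplier, and ERdj5-KO mice, which carry a knockout of Dnajc10, came from the RIKEN collection. The deleted part of the gene, the strain background of the KO line and whether the genotypes were littermates were not given. Each genotype was either left untreated (WT-CON and KO-CON, 2 libraries each) or drank 2% dextran sulfate sodium (DSS) for 5 days (WT-DSS and KO-DSS, 3 libraries each). DSS damages the lining of the colon and is used as a model of colitis. The labels do not say whether each library came from its own mouse, and p-values measure only the spread between libraries, which may be technical.

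Secretory and membrane proteins are recognised on the ribosome by the signal recognition particle (SRP), which docks at its receptor on the ER and hands the chain to the Sec61 channel. Signal peptidase removes the signal sequence, oligosaccharyltransferase attaches N-linked glycans, and COPII vesicles carry the folded cargo to the Golgi while COPI vesicles bring back escaped ER residents and receptors. In the colon this route carries the mucins of goblet cells and the antibodies of plasma cells. ERdj5 is an ER-resident reductase of the DnaJ family that works with the chaperone BiP.

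Relative to all RNA of the colon, levels of the ER entry machinery were higher in KO-DSS than in WT-DSS. Higher genes made up 5 of 5 in the signal peptidase, 5 of 6 in SRP, 3 of 4 in TRAP, 4 of 7 in the translocon, 3 of 6 in oligosaccharyltransferase, 5 of 10 among receptors, 5 of 15 in COPII and 1 of 6 in COPI. Of the 59 genes, 31 were higher and 2 lower (edgeR's quasi-likelihood test, Benjamini-Hochberg adjusted p under 0.05 over all 20472 genes), against 29.8% of all tested genes called in either direction, 14.9% higher and 14.9% lower. The largest rise was that of Sec61b, at 1.96 times its WT level, and the largest fall that of Sec31b, at 0.311 times. The median log2 fold change of the 59 genes was 0.27, and that of all tested genes was -0.04. In 35 genes every KO-DSS library lay above every WT-DSS library and in 4 every one lay below, where 20.6% and 22.4% of all tested genes were separated in this way.

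No change of these genes was detected in WT mice given DSS, and most of them rose in KO mice given DSS. In WT mice none of the 59 was called by edgeR or by DESeq2, none had an unadjusted p under 0.05, and log2 fold changes ran from -0.26 to 0.25 with a median of 0.03. Of all tested genes 0.0244% were called there by edgeR, 0.0195% higher and 0.00488% lower, and 0.861% were called by DESeq2. Every WT-DSS library lay above every WT-CON library in 9 of the 59 and below in 4, where 15% and 13.2% of all tested genes did. In KO mice DSS raised 47 of the 59 and lowered 3, with a median log2 fold change of 0.60, against 45.4% of all tested genes called (23.1% higher and 22.3% lower). In 51 genes every KO-DSS library lay above both KO-CON libraries and in 3 below, against 31.6% and 33% of all tested genes. Between the untreated groups, also sampled on Day 5, 12 of 59 genes were lower in KO-CON than in WT-CON and none higher, with a median log2 fold change of -0.34 and 9.85% of all tested genes called (3.87% higher and 5.97% lower). The difference between the responses of the genotypes, tested as an interaction, was called in 35 genes as more positive in KO and in 2 as more negative, against 26.8% of all tested genes (13.8% more positive and 13% more negative). These comparisons share libraries, so their counts are not independent of each other.

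**Figure D1:**
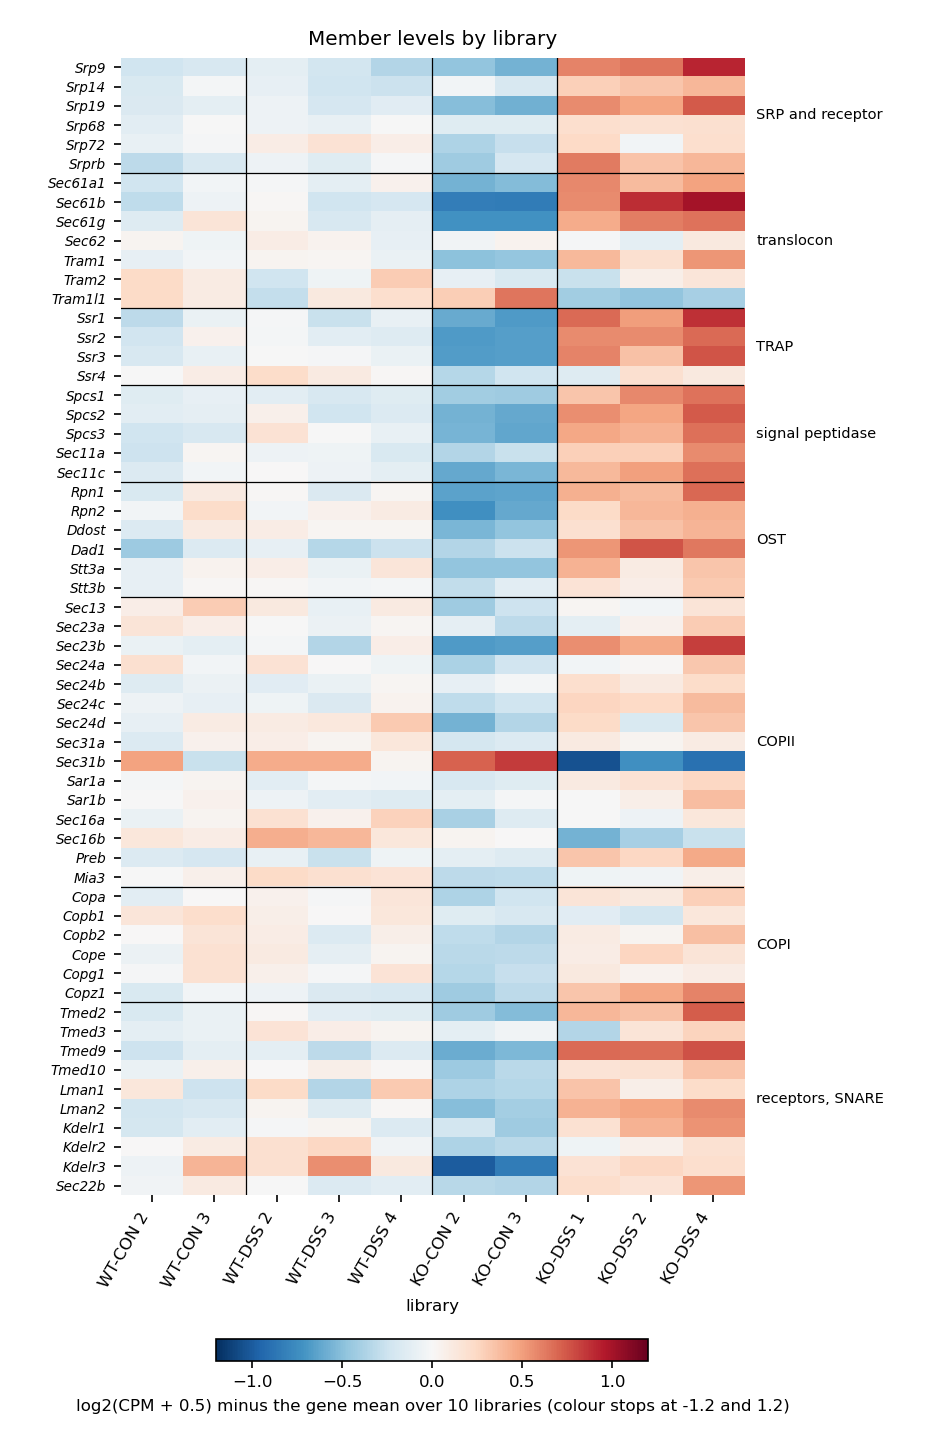
Level of each of the 59 genes (vertical axis, grouped by complex) in each of the 10 libraries (horizontal axis, named by group and library number), as log2(CPM + 0.5) minus the mean of that gene over the libraries; red is above and blue below the mean. The 3 KO-DSS columns are red and the 2 KO-CON columns blue for most genes of SRP, translocon, TRAP, signal peptidase and oligosaccharyltransferase, and Sec31b, Sec16b and Tram1l1 show blue in KO-DSS.

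Total counts ran from 49689389 to 72197887 per library. Dnajc10, the targeted gene, had 113 to 140 CPM (counts scaled to the TMM-adjusted library size) in the 5 WT libraries and 18.4 to 30.4 in the 5 KO libraries. All 11 colon epithelium markers passed the filter, and their summed level was 14422 to 17902 CPM in WT and 12826 to 18887 in KO and overlapped between the genotypes in each treatment. Of the 11, Cdx2 (log2 fold change 1.28) and Krt18 (0.36) were higher in KO-DSS than in WT-DSS, and Car1 was at 1776 and 1602 CPM in KO-CON against 263 and 295 in WT-CON. Smooth muscle markers summed to 2830 and 4420 CPM in WT-CON, 2489 to 4543 in WT-DSS, 8554 and 10168 in KO-CON and 502 to 875 in KO-DSS, and 9 of 9 were lower in KO-DSS than in WT-DSS. Goblet cell markers summed to 4914 to 8419 CPM in KO-DSS and 11015 to 13177 in WT-DSS (4 of 9 lower), and plasma cell markers to 341 to 584 and 381 to 448 CPM (1 of 8 higher). Neutrophil markers summed to 75.4 to 467 CPM in KO-DSS against 8.50 to 10.1 in WT-DSS (7 of 8 higher). The sum of the fibroblast markers was 286 to 531 CPM in KO-DSS and 358 to 1356 in WT-DSS (1 of 8 lower). Cela1, the 1 pancreas acinar marker that passed the filter, was at 361 and 363 CPM in KO-CON and 115 and 131 in WT-CON. It was at 123.5 to 149.7 CPM in WT-DSS and 41.9 to 87.4 in KO-DSS. The acinar genes Cela2a, Pnlip, Ctrb1 and Amy2a1 had at most 5 counts in any library, and the source of the Cela1 reads was not tested. The neutrophil markers S100a8, Cxcr2 and Mmp8 were at 0 counts in both KO-CON libraries. In the WT-CON libraries Mmp8 was at 0 counts as well, S100a8 had 2 and 4 counts and Cxcr2 had 24 and 3. In RNA of whole colon, fewer cells of a type and less RNA per cell cannot be told apart, and the part of these cell types in the results given here was not tested.

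The 59 genes together took 0.747% and 0.809% of all counts in the WT-CON libraries and 0.757% to 0.785% in WT-DSS. Their share was 0.591% and 0.624% in KO-CON and 0.906% to 1.01% in KO-DSS, so the KO groups bracketed both WT groups without overlap. Sec31b, Tram2 and Tram1l1 were counted far less deeply than the rest, and what is said of them rests on few reads. Levels are not corrected for gene length and are compared between libraries, not between genes.

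Of the 6 SRP genes, 5 were higher in KO-DSS than in WT-DSS. Srp9, which pairs with Srp14 in the domain that slows translation, stood at 65.4 and 67.6 CPM in WT-CON, 71.1, 66.2 and 60.3 in WT-DSS, 55.4 and 52.0 in KO-CON and 116, 121 and 146 in KO-DSS. Its KO-DSS libraries were all far above the other 7, and the log2 fold change against WT-DSS was 0.96 (SE 0.11, edgeR adjusted p = 0.000745). Srp14 stood at 38.7 and 43.3 CPM in WT-CON, 41.0, 37.1 and 36.7 in WT-DSS, 42.8 and 38.3 in KO-CON and 53.6, 55.5 and 58.2 in KO-DSS. Srp19, which helps assemble the particle, stood at 31.3 and 32.5 CPM in WT-CON, 33.9, 30.6 and 32.0 in WT-DSS, 24.5 and 23.5 in KO-CON and 52.7, 49.1 and 59 in KO-DSS. Both separated the DSS-treated groups without overlap, with log2 fold changes of 0.54 (SE 0.09, edgeR adjusted p = 0.00291) and 0.74 (SE 0.09, edgeR adjusted p = 0.00101).

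Srprb, the membrane-anchored subunit of the SRP receptor, stood at 34.6 and 37.8 CPM in WT-CON, 41.5, 39.1 and 42.8 in WT-DSS, 32.2 and 37.5 in KO-CON and 66.8, 55.0 and 57.1 in KO-DSS. The KO-DSS libraries were again the top 3, and the fold change was 0.54 (SE 0.10, edgeR adjusted p = 0.00556) on the log2 scale. Srp68, one of the large subunits, ranged from 67.7 to 74.7 CPM in all other libraries and reached 85.1 to 86.6 in KO-DSS, a log2 fold change of 0.25 (SE 0.07, edgeR adjusted p = 0.033) whose call was lost without WT-CON library 2 or 3, WT-DSS library 2 or 3, KO-CON library 2 or 3 or KO-DSS library 2 (edgeR adjusted p = 0.0518 to 0.116). Srp72, the partner of Srp68, overlapped between the DSS-treated groups at 103 to 125 CPM in KO and 112 to 120 in WT (log2 fold change 0.02, SE 0.09, edgeR adjusted p = 0.868).

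In the translocon, all 3 subunits of the Sec61 channel among the 59 genes were higher in KO-DSS than in WT-DSS. The alpha paralog Sec61a2, outside the 59, overlapped, at 30.6, 24.9 and 25.7 CPM in WT-DSS and 27.9, 26.6 and 31.1 in KO-DSS. Sec61b (chromosome 4, 47474661 to 47483233 in GRCm38.p6), the beta subunit, stood at 103 and 122 CPM in WT-CON, 128, 108 and 111 in WT-DSS, 71.1 and 71.0 in KO-CON and 189, 235 and 254 in KO-DSS. The KO-CON libraries were the lowest of the 10 and the KO-DSS libraries the highest. The log2 fold change was 0.97 (SE 0.13, edgeR adjusted p = 0.00137) against WT-DSS and 1.67 (SE 0.15, edgeR adjusted p = 8.34e-05) against KO-CON, the largest rise of any of the 59 genes in both comparisons. The same order held for the gamma subunit, Sec61g, at 58.0 and 72.4 CPM in WT-CON, 66.5, 56.7 and 60.1 in WT-DSS, 39.1 and 39.0 in KO-CON and 88.7, 99.3 and 102 in KO-DSS. Its log2 fold change against WT-DSS was 0.66 (SE 0.11, edgeR adjusted p = 0.0028). The pore-forming alpha subunit, Sec61a1, stood at 216 and 248 CPM in WT-CON, 253, 235 and 264 in WT-DSS, 172 and 178 in KO-CON and 379, 331 and 355 in KO-DSS. It too was highest in every KO-DSS library and lowest in both KO-CON libraries (log2 fold change 0.50 against WT-DSS, SE 0.10, edgeR adjusted p = 0.00613).

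Among the partners of the channel, Tram1, a membrane protein next to the entering chain, stood at 127 and 133 CPM in WT-CON, 139, 138 and 129 in WT-DSS, 96.5 and 98.5 in KO-CON and 178, 155 and 196 in KO-DSS. The KO-DSS libraries were the highest 3, at a log2 fold change of 0.38 (SE 0.10, edgeR adjusted p = 0.019) that missed the threshold without WT-DSS library 3 (edgeR adjusted p = 0.056). Its paralog Tram2 had few reads, with counts of 42 and 35 in WT-CON, 22, 31 and 54 in WT-DSS, 22 and 27 in KO-CON and 23, 33 and 29 in KO-DSS, and the DSS-treated groups overlapped (log2 fold change -0.07, SE 0.38, edgeR adjusted p = 0.907). Sec62, which serves chains that enter after translation, ranged from 81.7 to 96.0 CPM over all 10 libraries, with overlap between the DSS-treated groups (log2 fold change -0.02, SE 0.09, edgeR adjusted p = 0.908).

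Tram1l1 (chromosome 3, 124321037 to 124323260), a further paralog of Tram1, had its lowest levels in KO-DSS. Its counts were 43 and 36 in WT-CON, 21, 40 and 49 in WT-DSS, 38 and 76 in KO-CON and 18, 14 and 13 in KO-DSS. After scaling, the KO-DSS libraries were at 0.234 to 0.273 CPM, against 0.333 to 0.673 in WT-DSS and 0.751 and 1.09 in KO-CON. Against WT-DSS the log2 fold change was -1.06 (SE 0.36, edgeR adjusted p = 0.0501) and missed the threshold, and against KO-CON it was -1.84 (SE 0.39, edgeR adjusted p = 0.00412). It was higher in both KO-CON than in both WT-CON libraries, which did not pass the test (log2 fold change 0.52, SE 0.41, edgeR adjusted p = 0.455).

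TRAP, which aids the entry of chains with weak signal sequences, split into 3 subunits that rose and 1 that was not called. Ssr1, the alpha subunit, stood at 175 and 206 CPM in WT-CON, 216, 181 and 204 in WT-DSS, 143 and 136 in KO-CON and 350.4, 308 and 401 in KO-DSS. Ssr2, the beta subunit, stood at 149 and 180.3 CPM in WT-CON, 171, 159 and 156 in WT-DSS, 109 and 110.2 in KO-CON and 258, 258 and 279 in KO-DSS. Ssr3, the gamma subunit, stood at 245 and 263 CPM in WT-CON, 280.2, 278 and 266 in WT-DSS, 177 and 177 in KO-CON and 425, 359 and 472 in KO-DSS. In all of them the KO-DSS libraries were the highest of the 10 and the KO-CON libraries the lowest. Log2 fold changes between the DSS-treated groups were 0.82 (SE 0.12, edgeR adjusted p = 0.00208), 0.71 (SE 0.10, edgeR adjusted p = 0.00147) and 0.61 (SE 0.11, edgeR adjusted p = 0.00431) in that order. Ssr4, the delta subunit, stood at 111 and 118 CPM in WT-CON, 129.6, 119.9 and 113 in WT-DSS, 87.4 and 94.4 in KO-CON and 100.1, 127 and 120.4 in KO-DSS. The DSS-treated groups overlapped (log2 fold change -0.06, SE 0.11, edgeR adjusted p = 0.697), and its rise with DSS in KO mice, 0.35 (SE 0.12, edgeR adjusted p = 0.0397), was lost without WT-CON library 2 or 3, WT-DSS library 3, KO-CON library 2 or 3 or KO-DSS library 2 or 4 (edgeR adjusted p = 0.0574 to 0.206).

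All 5 genes of the signal peptidase were higher in KO-DSS than in WT-DSS, and in each the groups did not overlap. Spcs2, an accessory subunit, stood at 113 and 115 CPM in WT-CON, 129, 105 and 110.5 in WT-DSS, 83.5 and 80.5 in KO-CON and 182, 172 and 206 in KO-DSS. Spcs1, another small accessory subunit, stood at 76.5 and 78.9 CPM in WT-CON, 77.5, 74.3 and 76.5 in WT-DSS, 63.2 and 62.7 in KO-CON and 107, 126 and 134 in KO-DSS. Log2 fold changes were 0.70 (SE 0.11, edgeR adjusted p = 0.0021) for Spcs2 and 0.68 (SE 0.09, edgeR adjusted p = 0.00148) for Spcs1. Spcs3, the subunit required for activity, stood at 91.6 and 94.2 CPM in WT-CON, 122, 108 and 101 in WT-DSS, 73.0 and 70.0 in KO-CON and 149, 144 and 171 in KO-DSS. It was the gene with the largest log2 fold change in WT mice given DSS, 0.25, which did not pass the test (edgeR adjusted p = 0.713), and it differed between the DSS-treated groups by 0.49 (SE 0.10, edgeR adjusted p = 0.00741).

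The catalytic subunits come from a pair of paralogs. Sec11c stood at 88.8 and 97.2 CPM in WT-CON, 100.1, 95.3 and 91.9 in WT-DSS, 64.9 and 67.9 in KO-CON and 131, 141 and 158 in KO-DSS. Sec11a stood at 54.9 and 66.3 CPM in WT-CON, 62.7, 63.2 and 57.6 in WT-DSS, 51.1 and 54.1 in KO-CON and 79.7, 79.9 and 97.3 in KO-DSS. Each was highest in the KO-DSS libraries, by 0.58 (SE 0.09, edgeR adjusted p = 0.00271) and 0.48 (SE 0.11, edgeR adjusted p = 0.0108) on the log2 scale. Sec11c was also below WT in KO-CON (log2 fold change -0.49, SE 0.12, edgeR adjusted p = 0.0298), whereas Sec11a was not called there (edgeR adjusted p = 0.369); the difference between the paralogs in that comparison was not tested.

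The oligosaccharyltransferase gave 3 rises among 6 genes, led by its smallest member. Dad1 (chromosome 14, 54235485 to 54253929), a small subunit shared by both forms of the enzyme, stood at 80.6 and 97.5 CPM in WT-CON, 102, 86.2 and 91.3 in WT-DSS, 85.4 and 91.0 in KO-CON and 158, 184 and 169 in KO-DSS. The other 7 libraries ranged from 80.6 to 102 CPM, below each KO-DSS library, and the log2 fold change was 0.87 (SE 0.11, edgeR adjusted p = 0.00111). Rpn1 and Rpn2, the ribophorins, were lower in KO-CON than in WT-CON. Rpn1 stood at 285 and 348 CPM in WT-CON, 327, 287 and 330.1 in WT-DSS, 208 and 209.5 in KO-CON and 436, 422 and 522 in KO-DSS. Rpn2 stood at 290.2 and 345 CPM in WT-CON, 291, 307 and 318 in WT-DSS, 178 and 194 in KO-CON and 347, 393 and 399 in KO-DSS. Against WT-DSS they were higher by 0.55 (SE 0.12, edgeR adjusted p = 0.00994) and 0.31 (SE 0.11, edgeR adjusted p = 0.0492), the call for Rpn2 being lost without WT-CON library 2 or 3, WT-DSS library 2, 3 or 4, KO-CON library 2 or 3 or KO-DSS library 2 or 4 (edgeR adjusted p = 0.0555 to 0.135).

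Ddost, a structural subunit, stood at 298 and 361 CPM in WT-CON, 356, 339.5 and 340.4 in WT-DSS, 229 and 241 in KO-CON and 382, 427 and 444 in KO-DSS. The DSS-treated groups were separated, but the difference did not pass the test (log2 fold change 0.27, SE 0.10, edgeR adjusted p = 0.0756). The catalytic subunit is either of a pair of paralogs. Stt3a, which glycosylates chains as they enter, stood at 156 and 172 CPM in WT-CON, 177, 158 and 185 in WT-DSS, 120.1 and 120.3 in KO-CON and 224, 179 and 211 in KO-DSS. Stt3b, which glycosylates sites skipped at entry, stood at 206 and 222 CPM in WT-CON, 222, 215 and 217 in WT-DSS, 179 and 202 in KO-CON and 248, 234 and 274 in KO-DSS. Neither was called between the DSS-treated groups (log2 fold change 0.24, SE 0.11, edgeR adjusted p = 0.121 and 0.21, SE 0.10, edgeR adjusted p = 0.127), and both rose with DSS in KO mice (log2 fold change 0.77, SE 0.12, edgeR adjusted p = 0.00106 and 0.40, SE 0.11, edgeR adjusted p = 0.0132), the call for Stt3b being lost without KO-CON library 2 (edgeR adjusted p = 0.122).

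**Figure D2:**
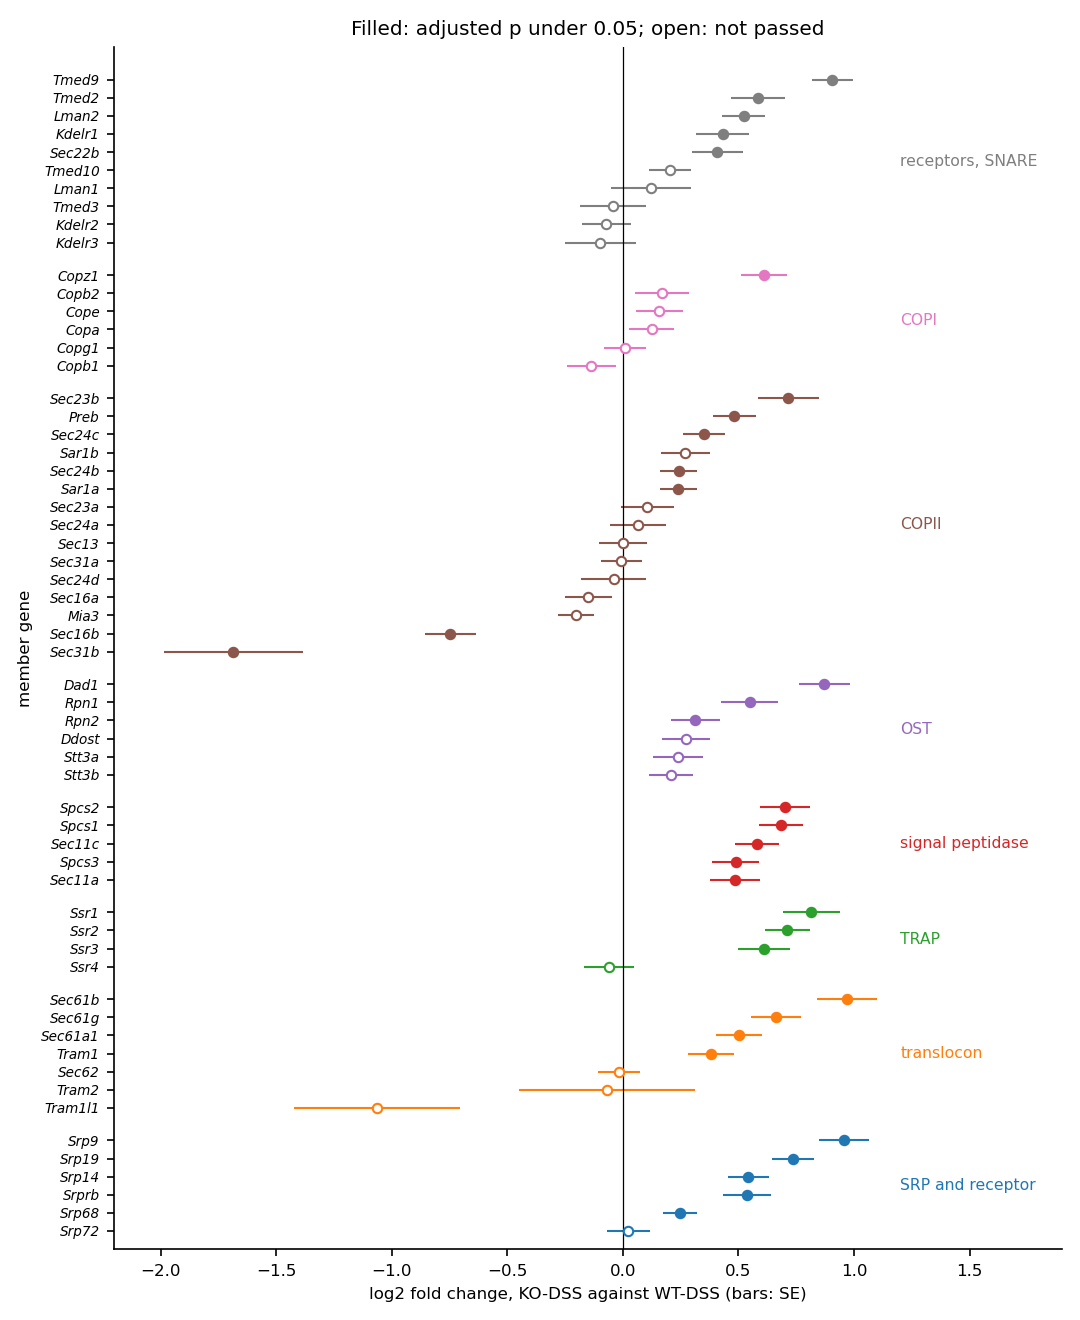
Log2 fold change of KO-DSS against WT-DSS (horizontal axis) for each of the 59 genes (vertical axis), grouped and coloured by complex, with its standard error as a bar; filled points have an adjusted p under 0.05. All 5 signal peptidase genes are filled and right of 0, 1 of 6 COPI genes is filled, and Sec31b at -1.69 and Sec16b at -0.75 are the filled points left of 0.

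COPII, the coat that buds from the ER, held both falls and 5 rises among 15 genes, with a median log2 fold change of 0.07. Sec23b (chromosome 2, 144556229 to 144590753), one of a pair of paralogs for the inner coat subunit that activates the GTPase Sar1, stood at 79.3 and 77.2 CPM in WT-CON, 82.2, 65.5 and 88.4 in WT-DSS, 52.2 and 52.9 in KO-CON and 124, 115 and 149 in KO-DSS. Its KO-DSS libraries were the top 3, and the log2 fold change was 0.72 (SE 0.13, edgeR adjusted p = 0.00451). The paralog Sec23a stood at 96.5 and 91.9 CPM in WT-CON, 86.3, 82.5 and 88.3 in WT-DSS, 80.3 and 69.5 in KO-CON and 79.8, 90.1 and 107 in KO-DSS, with overlapping DSS-treated groups (log2 fold change 0.11, SE 0.12, edgeR adjusted p = 0.507). Sec24 subunits select the cargo. Sec24c stood at 165 and 160.2 CPM in WT-CON, 166, 152 and 177 in WT-DSS, 139 and 145 in KO-CON and 206, 203 and 223 in KO-DSS, and rose by 0.35 (SE 0.09, edgeR adjusted p = 0.0181), a call lost without WT-DSS library 3 (edgeR adjusted p = 0.0809).

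Sec24b stood at 50.4 and 53.5 CPM in WT-CON, 51.0, 53.1 and 56.9 in WT-DSS, 52.4 and 55.3 in KO-CON and 64.4, 60.5 and 65.4 in KO-DSS, and its small difference of 0.24 (SE 0.08, edgeR adjusted p = 0.0469) was lost without WT-CON library 2 or 3, WT-DSS library 2 or 3, KO-CON library 2 or 3 or KO-DSS library 1 or 4 (edgeR adjusted p = 0.0746 to 0.136). Sec24a stood at 59.3 and 50.5 CPM in WT-CON, 58.4, 52.0 and 50.0 in WT-DSS, 39.8 and 44.1 in KO-CON and 50.6, 52.3 and 65.0 in KO-DSS. Sec24d stood at 56.8 and 65.3 CPM in WT-CON, 65.1, 66.2 and 75.4 in WT-DSS, 40.9 and 47.6 in KO-CON and 71.2, 53.3 and 76.6 in KO-DSS. Both overlapped between the DSS-treated groups (edgeR adjusted p = 0.707 and 0.85). Preb, the exchange factor that loads Sar1 with GTP, stood at 97.9 and 95.3 CPM in WT-CON, 104, 91.3 and 106 in WT-DSS, 102 and 98.3 in KO-CON and 139, 131 and 151 in KO-DSS. It was higher in all 3 KO-DSS libraries than in any other, by 0.48 (SE 0.09, edgeR adjusted p = 0.00546). Sar1a stood at 121 and 125 CPM in WT-CON, 112, 121 and 119.7 in WT-DSS, 107 and 111 in KO-CON and 132, 138 and 146 in KO-DSS, a difference of 0.24 (SE 0.08, edgeR adjusted p = 0.0477) that was lost without WT-CON library 2 or 3, WT-DSS library 2, 3 or 4, KO-CON library 2 or 3 or KO-DSS library 2 or 4 (edgeR adjusted p = 0.0568 to 0.139). Its paralog Sar1b, known for chylomicron export in the gut, stood at 64.0 and 66.5 CPM in WT-CON, 61.4, 58.5 and 57.8 in WT-DSS, 59 and 63.4 in KO-CON and 63.8, 67.6 and 82.9 in KO-DSS. The DSS-treated groups were separated, and the difference did not pass the test (log2 fold change 0.27, SE 0.10, edgeR adjusted p = 0.0782).

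No gene of the outer coat was called higher in KO-DSS than in WT-DSS. Sec13, one of its scaffold subunits, stood at 112 and 130.1 CPM in WT-CON, 114, 99.5 and 114 in WT-DSS, 78.5 and 88.6 in KO-CON and 107, 103 and 118 in KO-DSS. Sec31a, its partner in the outer cage, stood at 157 and 183 CPM in WT-CON, 186, 181 and 194 in WT-DSS, 152 and 157 in KO-CON and 189, 179.5 and 189 in KO-DSS. Neither was called between the DSS-treated groups (edgeR adjusted p = 0.998 and 0.964). Sec31b (chromosome 19, 44516957 to 44545848), the paralog of Sec31a, stood at 2.67 and 1.38 CPM in WT-CON, 2.57, 2.58 and 1.81 in WT-DSS, 3.18 and 3.55 in KO-CON and 0.595, 0.854 and 0.715 in KO-DSS. Its read counts were 166 and 84 in WT-CON, 162, 172 and 132 in WT-DSS, 161 and 248 in KO-CON and 41, 51 and 34 in KO-DSS. The KO-DSS libraries were the 3 lowest and the KO-CON libraries the 2 highest. The log2 fold change was -1.69 (SE 0.30, edgeR adjusted p = 0.00404) against WT-DSS and -2.22 (SE 0.33, edgeR adjusted p = 0.000656) against KO-CON, while KO-CON and WT-CON did not pass the test (log2 fold change 0.73, SE 0.35, edgeR adjusted p = 0.216). The smooth muscle marker sum was also lowest in KO-DSS and highest in KO-CON, as given with the marker values, and its part in the levels of Sec31b and Tram1l1 was not tested.

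Of the exit-site organisers, 1 was called lower. Sec16b (chromosome 1, 157506733 to 157568425), a paralog of the exit-site scaffold, stood at 34.6 and 33.7 CPM in WT-CON, 42.7, 41.7 and 34.8 in WT-DSS, 32.2 and 31.7 in KO-CON and 21.2, 23.8 and 26.1 in KO-DSS. All 3 KO-DSS libraries lay below the other 7, with a log2 fold change of -0.75 (SE 0.11, edgeR adjusted p = 0.0018) against WT-DSS. Its larger paralog Sec16a stood at 94.7 and 102 CPM in WT-CON, 114, 104 and 121 in WT-DSS, 76.5 and 89.6 in KO-CON and 99.9, 95.8 and 110.1 in KO-DSS and overlapped (log2 fold change -0.15, SE 0.10, edgeR adjusted p = 0.291). Mia3, the receptor that loads large cargo such as collagen, was at 112 to 122 CPM in KO-DSS and 130.2 to 136 in WT-DSS; the groups were separated but the difference did not pass (log2 fold change -0.20, SE 0.08, edgeR adjusted p = 0.0743).

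COPI, which retrieves proteins to the ER, rose between the DSS-treated groups in 1 of 6 genes. Copz1, the small zeta subunit, stood at 161 and 179 CPM in WT-CON, 175, 163 and 159.9 in WT-DSS, 136 and 147 in KO-CON and 231, 252 and 277 in KO-DSS. Every KO-DSS library was above every other library, by 0.61 (SE 0.10, edgeR adjusted p = 0.00277) against WT-DSS. Of the larger subunits, Copb1 stood at 193 and 201 CPM in WT-CON, 182, 174 and 191 in WT-DSS, 157 and 153 in KO-CON and 158, 149 and 191 in KO-DSS. Copb2 stood at 228 and 254 CPM in WT-CON, 242, 204 and 239.9 in WT-DSS, 185 and 179 in KO-CON and 245, 234 and 294 in KO-DSS. Their DSS-treated groups overlapped (log2 fold change -0.14, SE 0.11, edgeR adjusted p = 0.352 and 0.17, SE 0.12, edgeR adjusted p = 0.292). Cope, a subunit that supports the outer part of the coat, stood at 121 and 145 CPM in WT-CON, 137, 118 and 130.2 in WT-DSS, 102 and 102 in KO-CON and 136, 153 and 142 in KO-DSS. Copa, Cope and Copg1 had log2 fold changes of 0.12, 0.16 and 0.01, all with overlap and none called; with DSS in KO mice, 5 of the 6 rose, by 0.39 to 0.84.

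Of the cargo receptors of the p24 family, which sort proteins into vesicles, 2 of 4 were higher. Tmed9 (chromosome 13, 55593135 to 55597697) stood at 111 and 121 CPM in WT-CON, 121, 106 and 118 in WT-DSS, 86.8 and 90.6 in KO-CON and 211, 209.8 and 224 in KO-DSS. Its KO-DSS libraries were close to each other and above all others, with a log2 fold change of 0.91 (SE 0.09, edgeR adjusted p = 0.000466). Tmed2 stood at 289.6 and 310.4 CPM in WT-CON, 332, 302 and 296 in WT-DSS, 244 and 229.8 in KO-CON and 433, 419.5 and 543 in KO-DSS, and was higher by 0.58 (SE 0.12, edgeR adjusted p = 0.00673). Tmed10 stood at 226 and 250.1 CPM in WT-CON, 239, 250.3 and 242 in WT-DSS, 177 and 191 in KO-CON and 268, 272 and 302 in KO-DSS, separated but not called (log2 fold change 0.20, SE 0.09, edgeR adjusted p = 0.121). Tmed3 stood at 63.0 and 65.0 CPM in WT-CON, 76.6, 72.6 and 70.2 in WT-DSS, 63.2 and 66.5 in KO-CON and 53.8, 76.5 and 82.7 in KO-DSS. Its KO-DSS libraries spread below and above those of WT (log2 fold change -0.04, SE 0.14, edgeR adjusted p = 0.842).

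KDEL receptors catch ER residents in the Golgi and return them. Kdelr1 stood at 155 and 165 CPM in WT-CON, 178, 184 and 160.1 in WT-DSS, 154 and 134 in KO-CON and 204, 239.7 and 261 in KO-DSS, higher in KO-DSS by 0.43 (SE 0.12, edgeR adjusted p = 0.0212), a call lost without KO-DSS library 2 or 4 (edgeR adjusted p = 0.0507 to 0.0513). Kdelr2 stood at 160.0 and 170.5 CPM in WT-CON, 183, 189 and 154 in WT-DSS, 123 and 127 in KO-CON and 153, 167 and 181 in KO-DSS, with overlap (log2 fold change -0.07, SE 0.10, edgeR adjusted p = 0.637). Kdelr3 (chromosome 15, 79516408 to 79527739) stood at 18.3 and 25.4 CPM in WT-CON, 21.9, 28.4 and 20.8 in WT-DSS, 9.29 and 10.5 in KO-CON and 21.6, 22.9 and 22.0 in KO-DSS. No difference beyond its spread was found between the DSS-treated groups (log2 fold change -0.10, SE 0.15, edgeR adjusted p = 0.661), and its lowest levels were those of both KO-CON libraries.

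Of the lectin receptors for glycoproteins, Lman2 stood at 213 and 217 CPM in WT-CON, 254, 223 and 250.0 in WT-DSS, 174 and 186 in KO-CON and 332, 344 and 368 in KO-DSS and was higher by 0.52 (SE 0.09, edgeR adjusted p = 0.00394) in KO-DSS. Lman1, the receptor that carries coagulation factors in other tissues, stood at 63.7 and 48.8 CPM in WT-CON, 68.2, 45.3 and 72.4 in WT-DSS, 44.8 and 45.6 in KO-CON and 73.7, 60.8 and 67.8 in KO-DSS. It varied widely within groups, and the DSS-treated groups overlapped (log2 fold change 0.12, SE 0.17, edgeR adjusted p = 0.624). Sec22b, a SNARE of ER and Golgi vesicles, stood at 50.0 and 55.6 CPM in WT-CON, 51.2, 45.9 and 47.1 in WT-DSS, 40.8 and 40.3 in KO-CON and 59.6, 57.7 and 74.3 in KO-DSS. The KO-DSS libraries were the top 3, by 0.41 (SE 0.11, edgeR adjusted p = 0.0209) against WT-DSS, a call lost without WT-DSS library 3 (edgeR adjusted p = 0.0807).

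**Figure D3:**
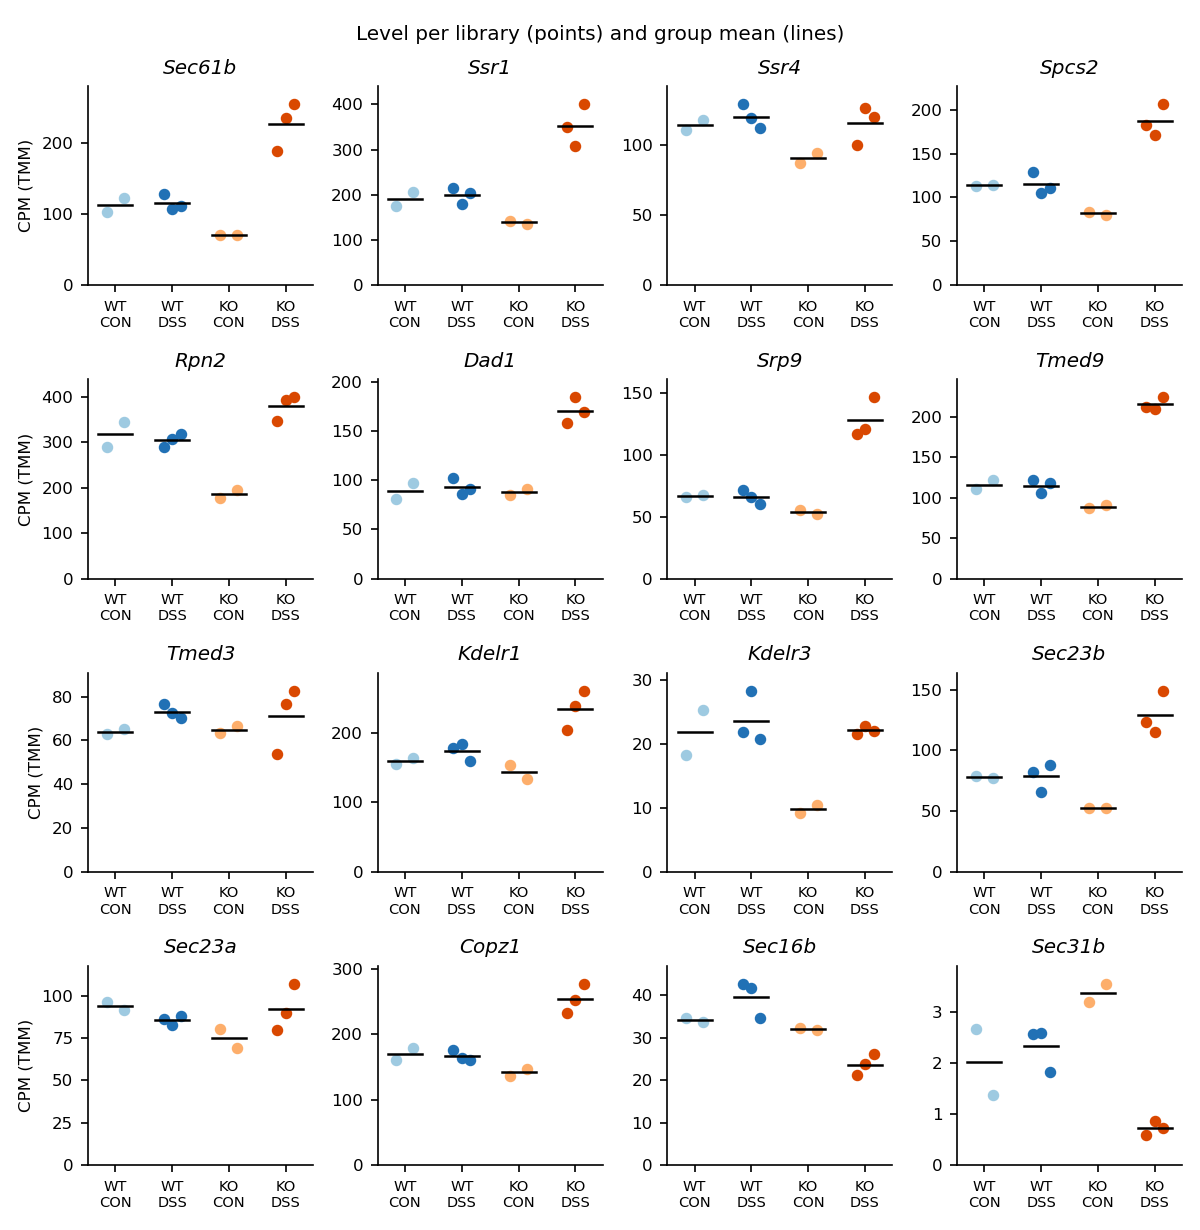
Level in CPM (vertical axes, each from 0) of 16 of the genes in every library (points) by group (horizontal axis), with the group mean as a line. Sec61b, Ssr1, Spcs2, Dad1, Srp9, Tmed9, Sec23b and Copz1 have their 3 highest points in KO-DSS, Ssr4, Tmed3, Kdelr3 and Sec23a overlap there with WT-DSS, and Sec16b and Sec31b have their 3 lowest points in KO-DSS.

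KO-CON colons were lower than WT-CON colons in 12 of the genes. The largest difference was in Kdelr3, at 9.29 and 10.5 CPM against 18.3 and 25.4, a log2 fold change of -1.15 (SE 0.19, edgeR adjusted p = 0.00889). Oligosaccharyltransferase gave 3 of the 12, Rpn2 at -0.77 (SE 0.13, edgeR adjusted p = 0.00887), Rpn1 at -0.60 (SE 0.15, edgeR adjusted p = 0.035) and Ddost at -0.49 (SE 0.13, edgeR adjusted p = 0.0431). Subunits of the channel and of TRAP were also among them, with Sec61g at -0.74 (SE 0.13, edgeR adjusted p = 0.0115), Sec61b at -0.66 (SE 0.16, edgeR adjusted p = 0.0307), Ssr2 at -0.59 (SE 0.12, edgeR adjusted p = 0.0172) and Ssr3 at -0.52 (SE 0.14, edgeR adjusted p = 0.0406). The remaining 4 were Sec13 (log2 fold change -0.53, SE 0.13, edgeR adjusted p = 0.0307), Sec11c (log2 fold change -0.49, SE 0.12, edgeR adjusted p = 0.0298), Spcs2 (log2 fold change -0.48, SE 0.13, edgeR adjusted p = 0.0498) and Srp19 (log2 fold change -0.41, SE 0.11, edgeR adjusted p = 0.0482). In 49 of the 59 genes both KO-CON libraries lay below both WT-CON libraries, where 32.1% of all tested genes did, and in 3 both lay above (33.8% of all tested genes).

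These 12 calls rest on 2 libraries per group. Leaving out an untreated library leaves 1 in its group, and the 12 calls did not hold without WT-CON library 3, KO-CON library 2 or KO-CON library 3. Fewer of all tested genes were called in such fits as well. The log2 fold changes of the 12 stayed negative in them, for example from -0.743 to -0.45 for Rpn1. Without KO-DSS library 4, 21 genes were lower, where 14.2% of all tested genes were called in either direction. Ddost, Rpn1, Spcs2, Srp19 and Ssr3 were also lost without 1 or more of the WT-DSS libraries 2, 3 and 4 or KO-DSS library 2, and over all losses the edgeR adjusted p was 0.0503 to 0.271. DESeq2 called 22 and a fit of the untreated groups alone 29, while the share of all tested genes called in either direction was 17.4% and 19.7% in these, against 9.85%. Smooth muscle markers were at 8554 and 10168 CPM in KO-CON and 2830 and 4420 in WT-CON, with 6 of 9 higher, and goblet cell markers at 9013 to 11054 and 12358 to 12982 CPM, with 3 of 9 lower; their part in the 12 calls was not tested.

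The response to DSS differed between the genotypes in 37 of the genes, and in each the WT response was not called. The largest differences, as KO response minus WT response on the log2 scale, were 1.63 (SE 0.20, edgeR adjusted p = 0.00155) for Sec61b, 1.40 (SE 0.17, edgeR adjusted p = 0.00151) for Sec61g, 1.30 (SE 0.15, edgeR adjusted p = 0.0014) for Ssr2, 1.30 (SE 0.14, edgeR adjusted p = 0.0011) for Tmed9 and 1.29 (SE 0.21, edgeR adjusted p = 0.00324) for Sec23b. In the other direction were Sec31b at -2.42 (SE 0.46, edgeR adjusted p = 0.006) and Sec16b at -0.65 (SE 0.17, edgeR adjusted p = 0.022). For Tram1l1 the difference of -1.58 (SE 0.55, edgeR adjusted p = 0.0575) did not pass. By complex, the interaction was called as more positive in 5 of 5 signal peptidase genes, 3 of 4 TRAP genes, 5 of 6 oligosaccharyltransferase genes, 4 of 6 SRP genes, 4 of 7 translocon genes, 7 of 10 receptors, 3 of 6 COPI genes and 4 of 15 COPII genes.

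Within KO mice, DSS raised all genes of SRP, TRAP, signal peptidase and oligosaccharyltransferase. Behind Sec61b, the largest rises were those of Ssr1 at 1.34 (SE 0.14, edgeR adjusted p = 0.000157), Sec61g at 1.31 (SE 0.13, edgeR adjusted p = 0.000106), Sec23b at 1.30 (SE 0.15, edgeR adjusted p = 0.000236) and Tmed9 at 1.28 (SE 0.10, edgeR adjusted p = 6.19e-05). Sec16b fell by 0.43 on the log2 scale (edgeR adjusted p = 0.016), beside Sec31b and Tram1l1. Of the 50 calls, 34 held when any 1 library was left out; the other 16 (Copa, Copb2, Copg1, Kdelr2, Lman1, Mia3, Sar1a, Sec13, Sec16b, Sec24a, Sec24d, Srp14, Srp68, Srp72, Ssr4 and Stt3b) were each lost without KO-CON library 2 or KO-CON library 3. Sec13, Sec24a and Lman1 were also lost without KO-DSS library 4, Lman1 without KO-DSS library 1 and Ssr4 without the libraries named above, and over all losses the edgeR adjusted p was 0.0513 to 0.206. In none of the comparisons were 8 genes called: Copb1, Sar1b, Sec16a, Sec23a, Sec31a, Sec62, Tmed3 and Tram2. All 12 genes lower in KO-CON were higher in DSS-treated than in KO-CON, and 17 genes that rose with DSS in KO mice were not called between the DSS-treated groups. Smooth muscle markers fell in 9 of 9 with DSS in KO mice, and neutrophil markers rose in 8 of 8.

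**Figure D4:**
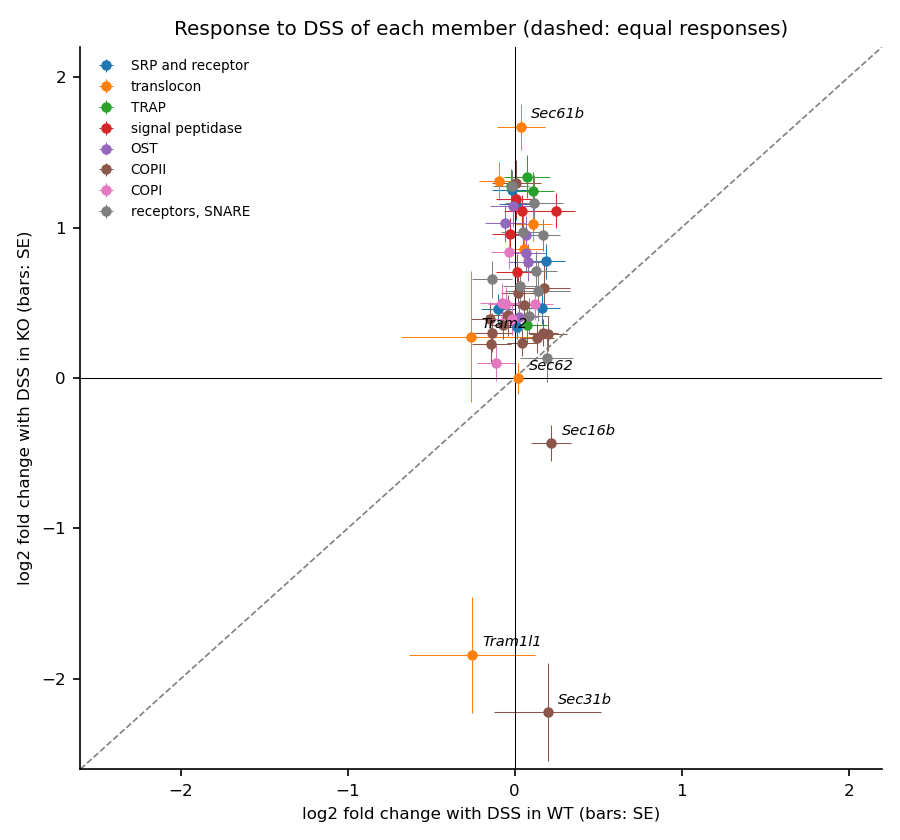
Response to DSS of each of the 59 genes, as log2 fold change against untreated mice, in WT (horizontal axis) and in KO (vertical axis), with standard errors as bars and colours for complexes. The points stand in a narrow band around 0 on the WT axis, from -0.26 to 0.25, and spread from -2.22 to 1.67 on the KO axis.

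Scaling to the epithelium was an alternative chosen after the values had been seen, and its markers include Cdx2, Krt18 and Car1, which were called between groups. The mean log2 CPM of the 59 genes minus that of the 11 colon epithelium markers was -2.91 in both WT-CON libraries, -2.70 to -2.61 in WT-DSS, -3.31 and -3.19 in KO-CON and -2.69 to -2.47 in KO-DSS. On that scale the DSS-treated groups overlapped in the mean, and the median log2 difference of the 59 genes between them was 0.05. Still, 23 genes lay above without overlap and 10 below, where 10.9% and 31.5% of all tested genes did. Sec61b (0.75), Srp9 (0.74), Tmed9 (0.70) and Dad1 (0.66) led the genes above, and Ssr4 (-0.27), Kdelr2 (-0.28), Tmed3 (-0.28) and Copb1 (-0.35) were now among those below. In WT mice 47 genes lay above WT-CON on that scale, where 41.2% of all tested genes did. With DSS in KO mice 52 lay above and 3 below (32.9% and 30.2% of all tested genes), with a median log2 difference of 0.64. Against WT-CON, 2 lay above and 50 below in KO-CON (30.5% and 33.9%), with a median of -0.38.

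The route has further genes. Of 23 tested genes of ER entry outside the 59, 12 were higher in KO-DSS than in WT-DSS and none lower, where 14.9% of all tested genes were higher and 14.9% lower. Their median log2 fold change was 0.33. They include Hspa5, which encodes the chaperone BiP, at 0.86 (SE 0.21, edgeR adjusted p = 0.014), Ostc and Ost4, small subunits of oligosaccharyltransferase, at 0.66 (SE 0.11, edgeR adjusted p = 0.00297) and 0.54 (SE 0.11, edgeR adjusted p = 0.00641), and 6 subunits of the EMC insertase, of which Emc6 had 0.86 (SE 0.14, edgeR adjusted p = 0.00261). Of 31 genes of ER and Golgi transport outside the 59, 10 were higher and 1 lower, against the same shares of all tested genes, with a median of 0.24. Tmed5, a p24 receptor, rose by 0.70 (SE 0.12, edgeR adjusted p = 0.0039), Surf4, a cargo receptor, by 0.44 (SE 0.10, edgeR adjusted p = 0.0105), and Ykt6, a SNARE, by 0.48 (SE 0.08, edgeR adjusted p = 0.00388), whereas Stx5a, the syntaxin of the early Golgi, was lower (log2 fold change -0.45, SE 0.09, edgeR adjusted p = 0.00577). In WT mice given DSS none of these genes was called by edgeR, and 1 of the 23 and 0 of the 31 had an unadjusted p under 0.05.

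Ratios between related genes were taken within each library. The ratio of Sec23b to Sec23a was 0.822 and 0.840 in WT-CON, 0.953, 0.793 and 1.00 in WT-DSS, 0.650 and 0.762 in KO-CON and 1.55, 1.28 and 1.39 in KO-DSS. The ratio of Tmed9 to Tmed3 was 1.76 and 1.87 in WT-CON, 1.58, 1.46 and 1.67 in WT-DSS, 1.37 and 1.36 in KO-CON and 3.93, 2.74 and 2.71 in KO-DSS. That of Kdelr1 to Kdelr2 was 0.968 and 0.966 in WT-CON, 0.975, 0.977 and 1.04 in WT-DSS, 1.25 and 1.05 in KO-CON and 1.33, 1.44 and 1.44 in KO-DSS. In each of these the 3 KO-DSS libraries were above all others, but the pairs were chosen for display after the values were seen. Other pairs taken the same way, such as Lman2 to Lman1 and Sec61b to Sec61a1, overlapped between the DSS-treated groups. Of 26 pairs in 12 groups of related genes, compared as log2 ratios, 17 did not overlap between the DSS-treated groups. Many pairs share a gene, and the share among pairs of other genes was not taken. Of all tested single genes, 20.6% lay above and 22.4% below without overlap in this comparison. With 3 libraries against 3, a two-sided exact permutation p cannot fall below 0.1, and the smallest after Benjamini-Hochberg adjustment over the 26 was 0.153.

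Pairs of subunits of the same complex, all chosen after the values were seen, were compared likewise. Ssr1 to Ssr4 was 1.58 and 1.75 in WT-CON, 1.67, 1.51 and 1.82 in WT-DSS, 1.63 and 1.44 in KO-CON and 3.50, 2.43 and 3.33 in KO-DSS. Copz1 to Copb1 was 0.834 and 0.888 in WT-CON, 0.963, 0.934 and 0.836 in WT-DSS, 0.863 and 0.965 in KO-CON and 1.46, 1.69 and 1.45 in KO-DSS. Both ratios were higher than in any of the 7 other libraries in each KO-DSS library. Sec31b to Sec31a was 0.0170 and 0.00754 in WT-CON, 0.0138, 0.0143 and 0.00936 in WT-DSS, 0.0210 and 0.0226 in KO-CON and 0.00315, 0.00476 and 0.00379 in KO-DSS, with the lowest ratios in KO-DSS. No source states how reads that map to more than 1 gene were counted, so the split of reads between close paralogs, and for small genes such as Srp9, Sec61g and Dad1 between the gene and its processed copies, is uncertain.

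**Figure D5:**
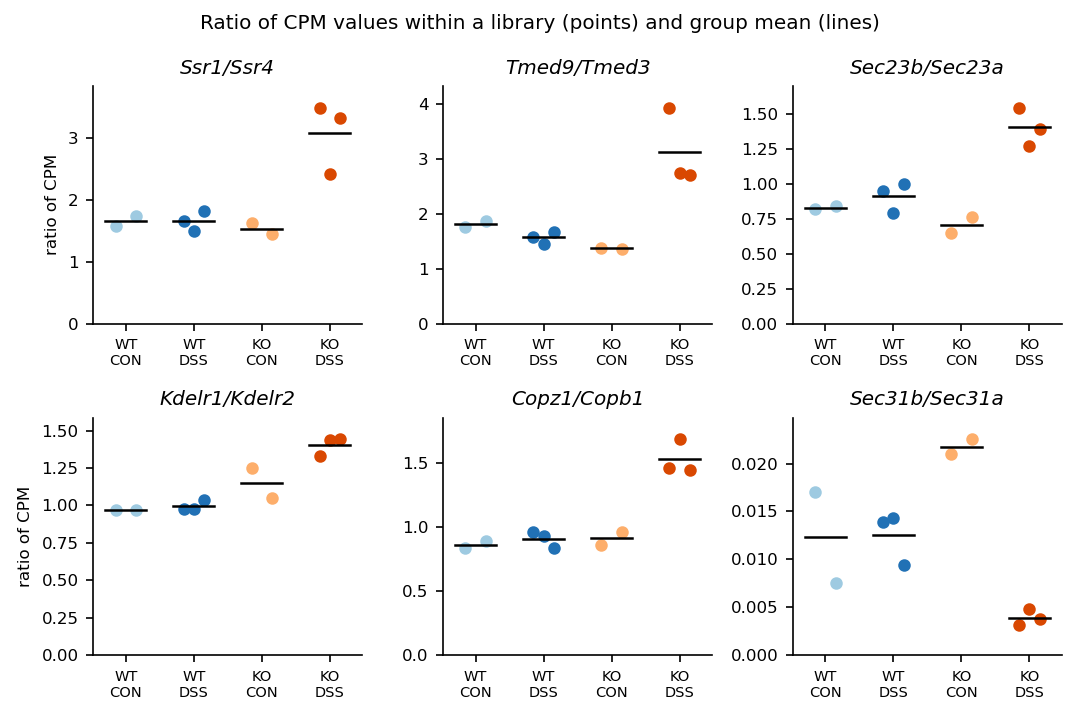
Ratio of the CPM of 2 genes within each library (points, vertical axes from 0) by group (horizontal axis), with the group mean as a line, for 6 pairs chosen after the values were seen. In the first 5 pairs the 3 KO-DSS points lie above all others, and for Sec31b/Sec31a they lie below all others.

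Many genes of the ER carry short sequence elements through which the unfolded protein response switches them on. RefSeq promoter windows of GRCm38.p6, from 250 bases before to 50 bases after a transcript start of the gene, were at hand for 49 of the 59 genes and were searched on both strands. The ER stress element ERSE, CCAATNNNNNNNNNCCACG, was in 0 of the 49 and in 0.137% of all 27025 genes with a window. A related element, ERSE-II, was in 0 and in 0.0444%. The core of the unfolded protein response element, TGACGTG, was in 7 of the 49 (14.3%) and in 2.22% of all genes. Read on the other strand it is CACGTCA, which shares the letters CACG with the end of both ER stress elements. Of the 49, none of the 23 that were higher in KO-DSS held it, and 7 of the other 26 did: Copb1, Copb2, Kdelr3, Mia3, Sec16b, Sec23a and Sec24d. The 10 genes without a window, all but Kdelr2 and Lman1, were among the 31 higher in KO-DSS. The higher genes were therefore searched less completely than the others.

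The stretches that hold the core are shown for the 5 of these genes where the whole match lies upstream of the transcript start of the window, and capitals mark the match on the strand of the gene. The matches of Copb2 and Sec23a reach or follow the start, and the 10 genes without a window were not searched. For Sec16b and Sec24d that start lies inside the annotated gene, so their stretches do too, apart from the first base of Sec16b.
Copb1 (chr7:114254681-114254727, minus strand): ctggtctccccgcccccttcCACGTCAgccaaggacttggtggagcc
Kdelr3 (chr15:79516359-79516405, plus strand): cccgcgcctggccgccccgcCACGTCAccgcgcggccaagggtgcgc
Mia3 (chr1:183369625-183369671, minus strand): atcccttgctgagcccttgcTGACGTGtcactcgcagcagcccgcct
Sec16b (chr1:157506732-157506778, plus strand): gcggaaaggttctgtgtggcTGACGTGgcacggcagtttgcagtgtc
Sec24d (chr3:123267450-123267495, plus strand): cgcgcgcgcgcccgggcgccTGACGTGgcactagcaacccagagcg

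A match is a run of letters and not a measured binding site. Of these 5, Kdelr3 and Sec24d rose with DSS in KO mice by 1.17 and 0.60 on the log2 scale, Mia3 by 0.30, Copb1 was not called and Sec16b fell by 0.43.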

How the data were processed

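Colon RNA of 10 mouse libraries was sequenced from a stranded mRNA kit. The authors deposited raw read counts per gene. Tools in the submitters' processing notes, whose roles are not stated, are StringTie 2.1.3b, HISAT2 2.1.0, Trimmomatic 0.38 and Bowtie2 2.3.4.1, with the build mm10. The treatment of multi-mapping reads and strand in counting was not given. Columns of the table were assigned to groups by name, and since their library numbers differ from those of the sample titles, a number only names a library. The 42 value columns not used were 30 of other per-library values (10 of them TPM), 8 of the authors' own comparisons (fold changes and p-values) and 4 group means.

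Counts were tested with edgeR 4.0.16 and limma 3.58.1 in R 4.3.3 (filterByExpr, TMM scaling, quasi-likelihood fit of the 4 groups over all 10 libraries, Benjamini-Hochberg adjustment over 20472 genes, called at 0.05). CPM are counts scaled to the TMM-adjusted library size. Total counts were 49689389 to 72197887 per library. No pair of libraries within a group was alike within sampling noise (mean chi-square per gene of 39.68 to 160 over 17512 genes), and all were counted. The fit was tested on simulated data with known changes.

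The 59 genes, the related and marker lists and the tests were chosen with earlier results of these data known. Library values are given for Sec31b and Tram1l1, for the 5 largest called rises and falls of each comparison, for genes called in the interaction and for their paralogs. Sec31b and Tram1l1 were picked because the paper names them among ER genes that DSS raised in ERdj5-KO colon. In the counts used here both fell with DSS in KO mice. Alternatives were RLE factors, DESeq2 1.42.0, a fit of only the compared groups, no filter, a minimum of 10 counts per library, a block for the library number, each library left out, and an unadjusted p under 0.01 with a fold over 3. Promoters came from RefSeq (GRCm38.p6).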

Additional observations from a re-analysis of the deposited data

Results flagged for a closer look

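The response to DSS differed between KO and WT mice, by the interaction term of the edgeR quasi-likelihood fit at a Benjamini-Hochberg adjusted p under 0.05, in the 37 genes that follow. Values are the log2 response in KO minus that in WT, with the adjusted p.

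In the translocon they were Sec61b 1.63 (adjusted p = 0.00155), Sec61g 1.40 (adjusted p = 0.00151), Sec61a1 0.91 (adjusted p = 0.00397) and Tram1 0.80 (adjusted p = 0.00669). In TRAP they were Ssr1 1.27 (adjusted p = 0.00286), Ssr2 1.30 (adjusted p = 0.0014) and Ssr3 1.13 (adjusted p = 0.00279), and in SRP and its receptor Srp9 1.27 (adjusted p = 0.00174), Srp14 0.56 (adjusted p = 0.0186), Srp19 1.15 (adjusted p = 0.00155) and Srprb 0.59 (adjusted p = 0.0259). Signal peptidase gave Spcs1 0.99 (adjusted p = 0.00264), Spcs2 1.18 (adjusted p = 0.00224), Spcs3 0.87 (adjusted p = 0.00517), Sec11a 0.69 (adjusted p = 0.0183) and Sec11c 1.07 (adjusted p = 0.00197). Oligosaccharyltransferase gave Rpn1 1.15 (adjusted p = 0.00359), Rpn2 1.09 (adjusted p = 0.00278), Ddost 0.76 (adjusted p = 0.0102), Dad1 0.88 (adjusted p = 0.00645) and Stt3a 0.69 (adjusted p = 0.0173).

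The COPII coat gave Sec23b 1.29 (adjusted p = 0.00324), Sec24c 0.55 (adjusted p = 0.0209), Sec13 0.53 (adjusted p = 0.0387) and Sar1a 0.42 (adjusted p = 0.037) as more positive in KO, and Sec31b -2.42 (adjusted p = 0.006) and Sec16b -0.65 (adjusted p = 0.022) as more negative. The COPI coat gave Copz1 0.87 (adjusted p = 0.00474), Copb2 0.58 (adjusted p = 0.0444) and Cope 0.54 (adjusted p = 0.0324). Among receptors and the SNARE were Tmed9 1.30 (adjusted p = 0.0011), Tmed2 0.93 (adjusted p = 0.00734), Tmed10 0.58 (adjusted p = 0.0184), Lman2 0.78 (adjusted p = 0.00557), Kdelr1 0.58 (adjusted p = 0.0403), Kdelr3 1.05 (adjusted p = 0.0138) and Sec22b 0.79 (adjusted p = 0.0103).

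Leaving out 1 library at a time kept 22 of the 37 calls. The other 15 were lost for at least 1 library, with adjusted p values of 0.0503 to 0.163. Copb2 and Sec13 were lost on leaving out any 1 of WT-CON 2 or 3, WT-DSS 2 or 3, KO-CON 2 or 3, KO-DSS 4. Cope was lost on leaving out any 1 of WT-CON 3, WT-DSS 3, KO-CON 2 or 3, KO-DSS 2. Ddost and Sec22b were lost without WT-CON library 3. Kdelr1 was lost on leaving out any 1 of WT-CON 2 or 3, WT-DSS 2 or 3 or 4, KO-CON 2 or 3, KO-DSS 2 or 4. Kdelr3 was lost on leaving out any 1 of WT-CON 3, KO-CON 2. Sar1a was lost on leaving out any 1 of WT-CON 2 or 3, WT-DSS 2 or 3, KO-CON 2 or 3, KO-DSS 2. Sec11a, Stt3a and Tmed10 were lost on leaving out any 1 of WT-CON 3, KO-CON 2 or 3. Sec16b and Sec24c were lost on leaving out any 1 of WT-CON 2 or 3, WT-DSS 3, KO-CON 2 or 3. Srp14 was lost on leaving out any 1 of WT-CON 3, KO-CON 3. Srprb was lost on leaving out any 1 of WT-CON 2 or 3, WT-DSS 3, KO-CON 2.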

How the results depend on the processing

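No call of a named gene reversed under any alternative. Over all genes named and all alternatives, calls stayed past the threshold in 477 and missed it in 84 instances for KO-DSS against WT-DSS, 744 and 106 for DSS in KO mice, 126 and 78 for KO-CON against WT-CON, and 484 and 108 for the interaction. With an unadjusted p under 0.01 and a fold over 3, 0 genes were higher and 1 lower in KO-DSS than in WT-DSS (4.35% of all tested genes called), 1 rose and 2 fell with DSS in KO mice (13.9%), 0 were lower in KO-CON (4.77%), and the interaction gave 1 in each direction (11.2%). With at least 10 counts in every library, 4 genes were lower in KO-DSS than in WT-DSS, where 36.9% of all tested genes were called (19.7% higher). In KO-CON 22 were lower by DESeq2 and 29 with only the groups compared, where fewer libraries set the spread; otherwise the cause was not tested.

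Leaving out 1 DSS-treated library at a time gave 24 to 32 higher and 2 to 3 lower between the DSS-treated groups. With DSS in KO mice these fits gave 43 to 49 higher and 3 lower, and 8 to 21 were lower in KO-CON. The interaction gave 28 to 36 more positive and 1 to 3 more negative. The more negative count was 1 without WT-DSS library 3. In WT mice the count stayed at 0 under every alternative. Leaving out an untreated library leaves 1 in its group, whose spread was then taken from the other groups. Outside the comparison within WT mice, such fits called fewer of the 59 and fewer of all tested genes than the main fit. With 1 DSS-treated library left out, 15.9% to 28.2% of all tested genes were called between the DSS-treated groups. That share was 42.3% to 44.7% with DSS in KO mice, 7.51% to 14.3% between the untreated groups and 19% to 28.9% in the interaction. Only the groups compared gives no interaction value. Whether the library numbers pair the libraries was not settled. Deviations from the group mean correlated at -0.185 to 0.273 for same-numbered libraries and at -0.273 to 0.29 for others. In a group of 2 libraries the deviations mirror each other, so this check is weak. With the library number as a replicate block, 25 genes were higher in KO-DSS than in WT-DSS (17.7% of all tested genes called) and 39 rose with DSS in KO mice (30.6%). In that fit 12 were lower in KO-CON (10.9%), and the interaction gave 31 more positive and 1 more negative (21.3%). With counts under 80 in all libraries, Tram1l1 and Tram2 are limited by depth.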
